A study of Saccharomyces cerevisiae with 103 samples.

Results

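The genes described here encode the proteins of the mitochondrial ribosome of budding yeast. Members were all genes whose standard name is MRPL, MRPS, MRP or RSM followed by a number, and 67 of the 6692 genes in the tables met that rule. By name, 34 are MRPL genes of the large subunit, 20 are MRPS or RSM genes of the small subunit, and 13 carry the older prefix MRP, which covers both subunits. They lie on 14 chromosomes, and all 67 were present in the RNA-seq, poly(A) tag and tail tables. One name is a poor guide. MRP8 was once taken for a mitoribosomal protein but is now described as a cytoplasmic protein of unknown function.

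The mitochondrial ribosome translates the few messages of the mitochondrial genome, most of which encode core subunits of the respiratory chain, and its proteins are nuclear-encoded and imported. In yeast their mRNAs are the best-known targets of Puf3, an RNA-binding protein that recognises an element in the 3′ untranslated region and recruits the Ccr4-Not complex. Ccr4 and Pop2 are its deadenylases, which trim poly(A) tails. After decapping, the exonuclease Xrn1 degrades the body of the mRNA from its 5′ end.

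The study used the SK1 strain, whose cells enter meiosis synchronously, and read each sample as RNA-seq counts and as poly(A) tags, each tag giving a tail length in nucleotides (nt). Wild-type cells grown in acetate medium were followed from 0 to 9 h in sporulation medium (SPO), or moved back from SPO at 1 h or at 7 h into glucose medium (YPD), with samples just before and at 5 and 20 min. Both designs have 2 libraries of each kind per group. Wild type (Wt) and ccr4delta/delta, pop2delta/delta and xrn1delta/delta strains were sampled in YPD growth (Veg), after premeiotic growth (Pre) and at 5 h in SPO (Mei), with 1 RNA-seq and 1 tag library for each combination. In YPD growth, a degron-Xrn1 strain was sampled at 0 and 30 min of 500 µM auxin plus 50 µM CuSO4, and a pCup1-Ccr4 strain, in which copper drives CCR4, at 0 and 60 min of 50 µM CuSO4, each beside a wild-type control and with 1 library per time. Whether replicates came from separate cultures is not stated in the labels, and the p-values cover no more than the differences among these libraries, possibly technical ones. All samples are bulk cultures, in which fewer expressing cells and less RNA per cell cannot be told apart.

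RNA-seq libraries held 132594 to 4689131 counts over the 5 experiments, and tag libraries 71930 to 8926553 tags. Levels are CPM, counts scaled to a common library total, after TMM scaling within each experiment, without a length correction, so they are compared within a gene only. Deleted genes matched the strain labels: CCR4 stood at 147, 90.6 and 100 CPM in Wt Veg, Pre and Mei and at 0, 1.8 and 0 in the ccr4 libraries, POP2 at 0 in all pop2 libraries, and XRN1 at 373, 151 and 266 against 2.71, 1.76 and 4.32. Some neighbours share bases with members. MRPL19 overlaps YNL184C on the same strand over 113 bases, MRPL51 overlaps YPR099C on the opposite strand over 323, and MRP4 overlaps YHL005C over 2, so reads of these pairs may have been split or lost.

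The sequence to which Puf3 binds was searched first, since nearly all members carry it. Its core is TGTANATA, where N is any base, and it was looked for on the sense strand only, in the 200 bases after each stop codon of the R64 reference (strain S288C, not SK1). At least 1 match was found in 65 of 67 members (97.0%), against 843 of 5988 genes in all (14.1%), 4.3% of cytosolic ribosomal protein genes and 9.7% of nuclear respiratory chain genes. The members without a match were MRP8 and RSM22, a methyltransferase-like protein associated with the small subunit. Genes that share the pathway under other names also had it, at 90.9% of 11 further mitoribosome genes and 91.3% of 23 mitochondrial translation factor genes. A match is a description of the reference, not a shown site. The stretches below, 30 bases each with the motif in capitals and written 5′ to 3′ on the sense strand, belong to members whose values are given later.
MRP1 first site: ttggtagtctcTGTAAATAtataaagtcaa
MRP1 second site: tattcgtaatgTGTATATAacgtggtctta
MRPL44: acaagcaagccTGTAAATAatatatatgca
MRPS28: gtagaaaagctTGTAAATAagaaaccgtca
MRPL8: gtgtattccctTGTAAATAtatagatgaca
MRPS17: gcactacactcTGTAAATAtatacaactac
MRPL37: tttggtatcctTGTAAATAaatatgtgtgt
MRPL15: aaaaatttatcTGTAAATAgtgatcgaaat
MRP20: cccctcacactTGTATATAcggagcaaact

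In R64 the motif of MRP1 (YDR347W, plus strand) lies at chrIV:1170194-1170201 and chrIV:1170226-1170233, starting 51 and 83 bases after the stop codon. It lies at chrXIII:720865-720872 for MRPL44 (YMR225C, minus strand) and at chrIV:1147208-1147215 for MRPS28 (YDR337W, plus). It lies at chrX:315725-315732 for MRPL8 (YJL063C, minus) and at chrXIII:636228-636235 for MRPS17 (YMR188C, minus). It lies at chrII:741649-741656 for MRPL37 (YBR268W, plus), at chrXII:760302-760309 for MRPL15 (YLR312W-A, plus) and at chrIV:1278510-1278517 for MRP20 (YDR405W, plus). Of these genes MRPL44 has 2 coding exons and the others have 1.

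Most members carried a single copy: 52 had 1 match, 12 had 2 and 1 had 3, and 60 of 67 had it within 100 bases of the stop codon. Of the 79 matches in the members, 36 had A at the variable base N (45.6%), 25 had T (31.6%), 17 had C (21.5%) and 1 had G (1.27%). In other genes T was the commonest there, in 431 of 843 matches (51.1%). A cytosine 2 bases before the motif, a position Puf3 is known to contact, was present at 52 of 79 matches in members (65.8%) and at 204 of 843 in other genes (24.2%). The median distance from the stop codon was 55 bases in members and 62 in other genes.

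**Figure D1:**
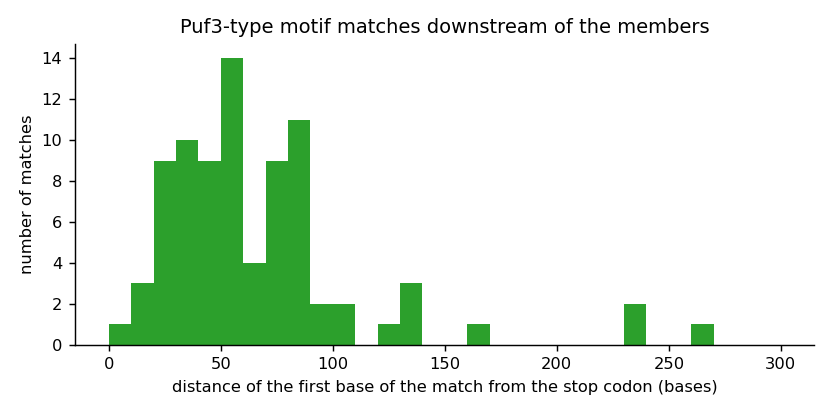
Distance from the stop codon to each TGTANATA match in the 300 bases downstream of the 67 members, in bins of 10 bases (x axis in bases, y axis in number of matches). Most matches start within 100 bases, where 60 of 67 members have at least 1.

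The sporulation course asks how these mRNAs change as starved cells pass through meiosis. Within 1 h of transfer to SPO, 63 of 67 members fell and 0 rose (edgeR quasi-likelihood test, Benjamini-Hochberg adjusted p under 0.05), beside 29.2% of all genes lower and 28.3% higher. None had an unadjusted p under 0.05 in the upward direction, and DESeq2 also called 0 higher. The members' median log2 change was -1.37, where that of all genes was 0.02. Both subunits took part, with 32 of 34 MRPL genes and 19 of 20 MRPS or RSM genes lower. The largest falls were in RSM25, a small-subunit protein, and MRPL15 and MRPL31 of the large subunit. RSM25 had 59.1 and 68.7 CPM at 0 h and 16.5 and 13.7 at 1 h (log2 -2.09, SE 0.24, adjusted p = 1.12e-08, edgeR). MRPL15 had 48.0 and 46.0 CPM at 0 h and 8.99 and 13.2 at 1 h. In both genes every 1 h library lay below every 0 h library. The cytosolic ribosomal protein genes fell further, 136 of 138 with a median of -3.19, and 20 of 31 nuclear respiratory chain genes fell with a median of -0.66.

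The members stayed low through the first 5 h and then parted. The median over members of the mean CPM stood at 67.1 before transfer. It was 27.8 after 1 h, 25 after 2 h and 28.9 after 5 h, and then 41.9 after 6 h, 51.2 after 7 h and 50.0 after 9 h. All 67 members changed over the course, as did 95% of all genes. For 43 members the highest mean was at 0 h, and for 23 it was at 6 h or later, the remaining one peaking at 4 h. At 5 h 56 members were lower than at 0 h and 3 were higher (median -1.36, all genes -0.11, with 37.7% lower and 29.9% higher among all genes). At 9 h 41 were lower and 8 higher (median -0.87, all genes -0.15, with 34.2% lower and 28.5% higher).

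MRPS17, a small-subunit protein, and MRPL37, a large-subunit protein, rose most. MRPS17 stood at 84.8 and 79.5 CPM at 0 h, 27 and 29.6 at 1 h, 128 and 198 at 5 h, 744 and 656 at 6 h, 725 and 854 at 7 h and 352 and 456 at 9 h. The 1 h libraries were thus its lowest here and those at 6 and 7 h its highest, with no overlap between those hours. It was 2.32 log2 units above 0 h at 9 h (SE 0.37, adjusted p = 2.14e-04, edgeR), and its smaller rise at 5 h (0.94, adjusted p = 0.0429) was lost without either 0 h library or without replicate 2 at 5 h, and with the replicate number as a block. MRPL37 went from 64.9 and 71.8 CPM at 0 h through 55.5 and 44.4 at 1 h to 539 and 493 at 6 h and 305 and 299 at 9 h (2.15, adjusted p = 3.26e-08). Its libraries at 6 and 9 h all lay above those at 0 h.

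The other members that rose at 9 h were MRPL27 (1.45, adjusted p = 1.7e-06, edgeR), MRP49 (1.19), MRPS8 (0.80), MRP8 (0.65), RSM22 (0.52) and MRP20 (0.36). MRP20, a large-subunit protein at the exit of the peptide tunnel, was also called at 5 h (0.33, adjusted p = 0.0467), and the calls of MRP20 and MRP8 were lost when some single libraries were left out. The count of 8 was 4 without replicate 2 at 0 h or at 9 h, so calls other than those of MRP20 and MRP8 were lost there too. The 3 higher at 5 h became 1 without either replicate at 0 h or replicate 2 at 5 h.

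At the other end MRPL8, of the large subunit, did not come back. It had 102 and 84.2 CPM at 0 h, 28.5 and 32.3 at 1 h, 15.1 and 11.5 at 5 h and 19.1 and 19.4 at 9 h (log2 -2.73 at 5 h, SE 0.25, adjusted p = 1e-10, and -2.26 at 9 h, edgeR). Both 5 h libraries lay below both 1 h libraries. MRPL6 (-2.47) and MRPL1 (-2.12) fell next most at 5 h, and MRPL28 (-2.67) and MRPL44 (-2.48) fell most at 9 h. MRP1, a small-subunit protein, fell by 2.09 on the log2 scale at 5 h.

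**Figure D2:**
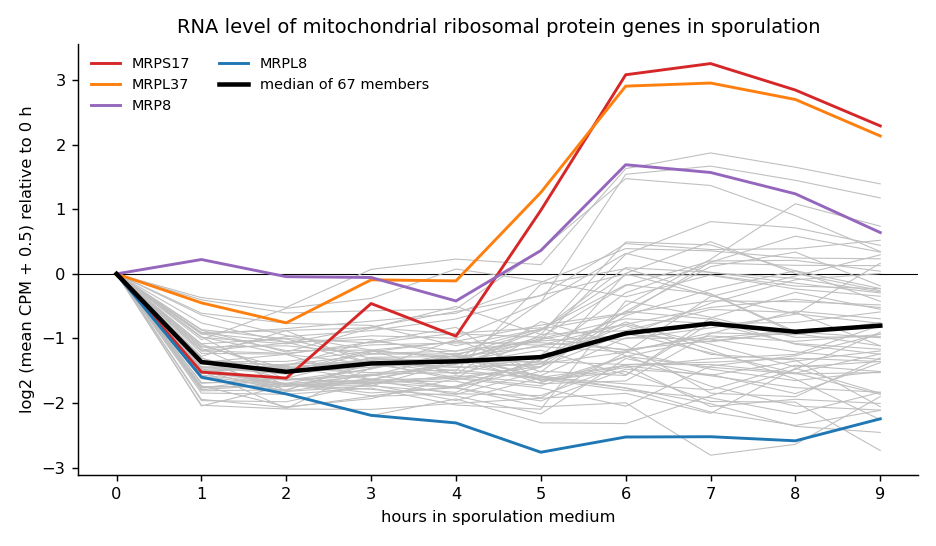
RNA level of each of the 67 members relative to its 0 h mean, as log2 of mean CPM plus 0.5 over 2 libraries per hour (y axis, log2 units), by hours in SPO (x axis). The black line is the median of the members, grey lines are single members, and MRPS17, MRPL37, MRP8 and MRPL8 are coloured: the first 2 climb after 5 h while MRPL8 stays near its low.

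The tag libraries of the course were shallow, and 38 members could be tested in them. At 5 h 11 of 38 were lower and 1 was higher (median -1.22, with 19.1% lower and 18.8% higher among all genes tested), MRPS9 falling most (-2.29) and MRPL37 rising (1.57, adjusted p = 0.00157, edgeR). The 11 became 2 without replicate 2 at 0 h, 7 without replicate 1 at 5 h and 6 without replicate 2 at 5 h. No member had the 20 tags required in every library for a tail test, so tails are given over all tags of the members together. That mean tail was 17.8 and 21.7 nt at 0 h, 22.5 and 24.5 at 1 h, 26.2 and 28.9 at 5 h, 28.6 and 32.7 at 6 h and 21.3 and 21.8 at 7 h. Over all genes it was 17.1 and 19.7 nt at 0 h and 22.4 and 26.2 at 6 h. Both libraries at 5 h and at 6 h lay above both at 0 h. These means weight abundant members most and were not tested.

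Return to growth asks how the same mRNAs respond when glucose comes back. After 1 h in SPO and 20 min in YPD, 49 of 67 members rose and 2 fell (edgeR), beside 38.4% of all genes higher and 42.8% lower, with a members' median of 1.03 and an all-gene median of -0.10. The median CPM over members in replicates 1 and 2 was 27.5 and 28.0 before transfer, 23.9 and 27.9 at 5 min and 58.1 and 66.6 at 20 min. At 5 min 9 rose and 21 fell (median -0.27, all genes -0.43, with 27.4% higher and 46.7% lower). With DESeq2's scaling factors in edgeR the counts were 15 and 13, and DESeq2 itself called 7 higher and 8 lower, so which direction held more members depends on the scaling. The cytosolic ribosomal protein genes had already risen at 5 min, 137 of 138 with a median of 4.37, and stood at a median of 6.79 at 20 min. Nuclear respiratory chain genes split into 14 higher and 7 lower of 31 at 20 min.

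MRPL15, which had fallen steeply on entry to SPO, rose most. It had 7.61 and 11.4 CPM before transfer, 28.1 and 26.2 at 5 min and 81.4 and 86.1 at 20 min (log2 3.18, SE 0.25, adjusted p = 5.17e-17, edgeR). The groups did not overlap at any step. MRPS8, of the small subunit, went from 6.44 and 6.13 to 37.6 and 40.5 CPM at 20 min (2.62), with 8.42 and 9.48 at 5 min. RSM22, which lacks the motif, had 20.5 and 9.64, then 32.3 and 47.9, then 89.9 and 85.8 CPM (2.45). It therefore rose with the members that carry one. At 5 min RSM22 (1.37), MRPL15 (1.57) and MRPL17 (1.33) led those that rose, while MRP8 (-1.53), MRP35 (-1.28) and MRPL31 (-1.21) led those that fell, MRP35 losing its call without replicate 1 before transfer.

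MRP8 moved the other way. Its 627 and 785 CPM before transfer became 249 and 232 at 5 min and 19.9 and 19.8 at 20 min, a fall of 5.14 on the log2 scale (log2 -5.14, SE 0.20, adjusted p = 5.37e-31, edgeR). No library at one time overlapped those of another. MRPL23 fell too (-0.49, from 59.1 and 55.2 to 45.0 and 38.2 CPM), a call lost without replicate 1 before transfer or replicate 2 at 20 min and under DESeq2. Scaling bears on these counts. With library sizes in place of TMM factors the all-gene median at 20 min went from -0.10 to -0.77 and the members' from 1.03 to 0.36, with 29 higher and 8 lower, while the members stood 1.13 and 1.12 above all genes under the 2 scalings. The count lower at 5 min was 13 without replicate 1 before transfer and 12 without replicate 1 at 5 min.

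After 7 h in SPO the response of the members was small. In the sporulation course, a separate experiment scaled on its own, their median stood at 51.2 CPM at 7 h against 27.8 at 1 h. Whether the starting level bears on the response was not tested. At 20 min 1 of 67 rose and 5 fell (median -0.14, with 17.9% higher and 11.3% lower among all genes), while the cytosolic ribosomal protein list had 132 of 138 higher (median 2.18). The single riser was again MRPL15 (1.57), and MRPL35 (-1.20), MRPL23 (-0.92), MRP20 (-0.53), MRP8 (-0.48) and MRPS17 (-0.44) fell. MRPL35 lost its call without replicate 2 before transfer (-1.01) and without replicate 1 (-1.52) or replicate 2 (-1.09) at 20 min. At 5 min 5 rose and 10 fell (median -0.13, with 26.3% higher and 23.2% lower among all genes). MRPL15 (1.74), MRPL17 (1.21) and MRPL3 (1.21) led the rises. MRPS17, high at this stage, fell from 697 and 586 to 233 and 261 CPM (-1.42, adjusted p = 5.96e-11, edgeR) and stood at 480 and 500 at 20 min, MRPL23 fell by 1.33 and MRP8 by 1.24.

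The replicate 2 library before transfer at 7 h held 132594 counts, the fewest of the series, and the counts at 7 h depended on single libraries. Without replicate 1 before transfer the 5 min counts were 2 higher and 5 lower, and the calls of MRPL15, MRPL23 and MRPL3 were lost. At 20 min most of the 5 falls lost their call without replicate 1 before transfer or without replicate 1 at 20 min. All of them did without replicate 2 at 20 min. The call of MRPL15, the single higher, was lost without replicate 1 before transfer (1.22) and without replicate 1 at 20 min (1.35).

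The difference between the returns was tested directly, as the change over 20 min from 7 h less the change over 20 min from 1 h. It was negative for 41 members and positive for 1 (edgeR), beside 28.4% of all genes negative and 32.5% positive, with a median of -1.25 against 0.11 over all genes. MRPL35, of the large subunit, showed the largest gap (-3.37, SE 0.48, adjusted p = 1.98e-08): it had 22.3 and 16.6 CPM before and 82.5 and 95.9 after 20 min from 1 h, and 26.4 and 53.3 before and 13.9 and 10.4 after from 7 h. The libraries at 20 min thus lay above their starting point in one return and below it in the other. MRPL7 (-2.71), MRPS8 (-2.68) and MRPS28 (-2.14) followed. MRP8 was the positive one (4.66), at 1180 and 1200 CPM after 20 min from 7 h against 19.9 and 19.8 from 1 h. Without replicate 1 before transfer at 7 h, which leaves the shallowest library alone in its group, the negative count was 16 and the call of MRPL7 was lost. With library sizes alone 20 were negative and 3 positive.

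**Figure D3:**
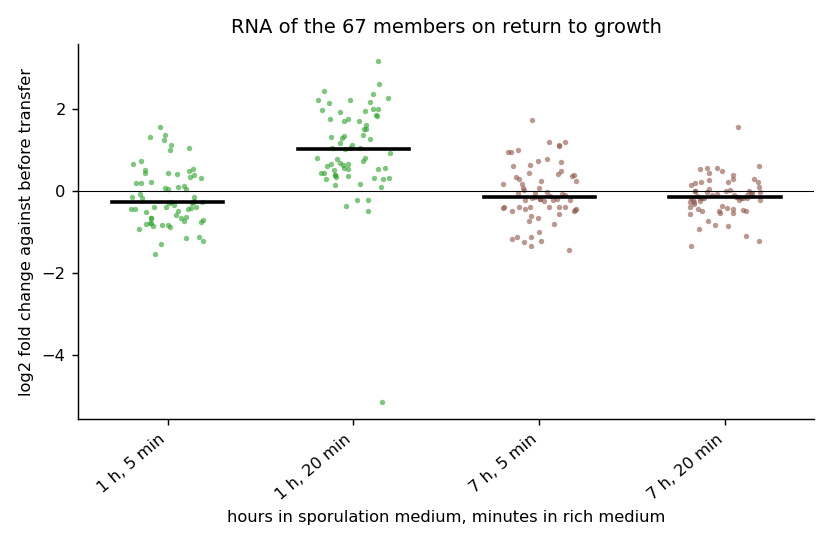
Log2 fold change of RNA against the libraries before transfer (y axis) for each of the 67 members at 5 and 20 min in YPD after 1 h or 7 h in SPO (x axis), with bars at the medians. The 20 min group from 1 h is centred on 1.03 with MRP8 alone near -5.14, and both groups from 7 h are centred close to 0.

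In tags, from 1 h 12 of 61 members rose and 2 fell at 20 min (median 0.57), where 26% of all genes rose and 28.2% fell. The difference between returns was not tested in tags. From 7 h 0 rose and MRPL32 fell (6.1% and 1.47%), with 1 higher at an unadjusted p under 0.05 by edgeR and 0 higher under DESeq2. The call of MRPL32 was lost without any one of the 4 libraries compared and under DESeq2. The 12 became 7 without replicate 2 before transfer and 5 without replicate 1 at 20 min. For tails, 6 members had enough tags for a tail test from 1 h, and all 6 estimates at 20 min were above 0 (median 11.91 nt, all genes 4.03 nt). Tails of RSM23, MRPS18 and MRP1, all of the small subunit, lengthened (limma), where 20.3% of all genes did and 5.6% shortened. RSM23 went from 23.2 and 17.6 nt to 41.6 and 28.8 nt (14.79 nt, SE 4.2, adjusted p = 0.0188), MRPS18 from 27.3 and 23.1 to 42.8 and 34.9 nt, and MRP1 from 22 and 21.9 to 31.2 and 37.1 nt. The groups did not overlap in any of them. All 3 calls were lost without replicate 1 at 20 min. That of MRP1 was lost without any one of the 4 libraries compared. The call of MRPS18 was also lost without either library before transfer, and that of RSM23 without replicate 2 before transfer. No tail of 6 members passed at 5 min from 1 h (limma, 2 at an unadjusted p under 0.05), of 18 at 5 min from 7 h (0 unadjusted) or of 15 at 20 min from 7 h (2 unadjusted), where 10.9%, 0% and 0.117% of all genes had longer tails and 4.4%, 0% and 0% shorter ones.

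The deletion strains ask what the members' mRNA and tails do without each decay enzyme. Each strain and stage is 1 library, so differences from Wt have no test and carry no replicate check. They are given as higher or lower past 1 log2 unit for RNA and tags, or 8 nt for tails. The clearest difference was after premeiotic growth. In ccr4 Pre 63 of 67 members were higher than in Wt Pre in RNA and 0 were lower (median log2 difference 2.18, all genes 0.06), where 19.8% of 4966 genes were higher and 16.1% lower. In pop2 Pre 61 were higher and 0 lower (median 1.96, with 19.5% and 15.4% among all genes). The tag libraries, made by a separate protocol, gave 62 of 67 and 63 of 66 higher, with medians of 2.23 and 2.09, where 17% and 17.8% of all genes were higher.

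Levels over the 3 stages place these differences. The median CPM over members was 131 in Wt Veg, 41.5 in Wt Pre and 46.7 in Wt Mei. It was 119, 205 and 103 in ccr4, 131, 175 and 89.8 in pop2, and 86.8, 89.6 and 47.5 in xrn1. Between Wt Veg and Wt Pre 53 of 67 members were lower by more than 1 log2 unit and MRP8 was higher (29.8% and 19.5% of all genes), and 40 of 64 tails were shorter by more than 8 nt (29.1% of all genes). Wt Pre was below Wt Veg for 65 of 67 members, whereas ccr4 Pre was above ccr4 Veg for 65 and pop2 Pre above pop2 Veg for 62. Over all genes 59% were below in the first comparison, and 46.8% and 47.6% above in the others. Members in ccr4 Pre also exceeded Wt Veg, in 64 of 67 genes in RNA and 64 of 67 in tags, where 47.9% and 50% of all genes did. In growing cells, by contrast, the members barely differed: 0 of 67 in ccr4 Veg and 1 of 67 in pop2 Veg, MRP8, passed 1 log2 unit upward (medians -0.09 and 0.00), beside 7.34% and 9.74% of all genes.

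Wt Pre was thin in RNA, with 257493 counts and a median of 11 counts per member, but its tag library held a median of 84 tags per member. MRP1 had 202, 49.1 and 28.0 CPM in Wt Veg, Pre and Mei. It had 189, 289 and 123 in ccr4, 206, 264 and 86.7 in pop2 and 127, 139 and 60.5 in xrn1. Its ccr4 and pop2 Pre libraries were thus the highest of the 12 and Wt Mei and Wt Pre the lowest. In tags MRP1 had 153, 39.4 and 31.4 CPM in Wt and 147, 208 and 86.8 in ccr4. MRPL4, a large-subunit protein, had 107, 29.4 and 30.1 tag CPM in Wt, 78.5, 165 and 59.9 in ccr4 and 83.8, 134 and 64.1 in pop2, again with both mutants highest in Pre.

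The 2 largest RNA differences in ccr4 Pre, MRPL44 (4.36) and MRPL19 (3.84), rested on 1 Wt count each. MRPL44, of the large subunit, had 1 count in Wt Pre and 80 in ccr4 Pre, a ratio of 38.1 (95% exact interval 6.64 to 1520, counting error only). MRPL19 had 1 and 55 (26.2, 4.51 to 1050) and MRPS8, whose difference was smaller (3.16), had 3 and 71 (11.3, 3.70 to 55.9). Tags resolved them better. MRPL44 had 153, 31 and 12.8 tag CPM in Wt Veg, Pre and Mei, and 176, 208 and 95.7 in ccr4. MRPL19 had 20.5 tag CPM in Wt Pre and 186 in ccr4 Pre. In tags MRPS8 (3.74), MRPL35 (3.54) and RSM24 (3.21) had the largest log2 differences in ccr4 Pre. Between MRPL19 and MRPS8 in RNA stood MRPL24 (3.65) and MRPL32 (3.5). MRPL44 (3.84), MRPL19 (3.5) and MRPL31 (3.2) had the largest differences in pop2 Pre.

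A few members did not share the difference. MRP8 had 393 CPM in Wt Pre and 387 in ccr4 Pre (-0.02), and 356 in pop2 Pre (-0.14). MRP20 had 204 and 302 (0.56) and RSM22 had 37.8 and 73.7 (0.91). Both members without the motif, of which MRP8 is no mitoribosomal protein, were among the 4 with the smallest RNA difference in ccr4 Pre, with MRP20 and MRPL6 (0.94), which carry it. In pop2 Pre RSM22 was at 1.39, past 1 log2 unit. MRP35 (0.43) and MRPL6 (0.65) were lowest after MRP8 in pop2 Pre. The 65 members with a motif had a median of 2.21 in ccr4 Pre and all 65 were above 0, and the 697 other genes with a motif had a median of 0.62 against -0.03 for 3992 without. Members with 1 motif had medians of 1.86 with A at N (29 genes), 2.35 with C (10) and 2.29 with T (13). The groups overlapped widely, from 0.94 to 4.36, 1.40 to 3.03 and 0.56 to 3.5.

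Related genes differed to varying degrees in ccr4 Pre. Of 11 mitoribosome genes under other names 9 were higher (median 1.67), of 23 mitochondrial translation factor genes 21 (2.13), of 31 nuclear respiratory chain genes 13 (0.88) and of 137 cytosolic ribosomal protein genes 0 (0.06). In tags the cytosolic list stood at 0.72 with 28 of 138 higher. PUF3 itself had 125 CPM in Wt Pre and 137 in ccr4 Pre. It was lower in ccr4 at the other stages, at 67.4 against 145 CPM in Veg and 55.9 against 103 in Mei. The Pre cultures also differed in IME1, which starts meiosis, at 3030 CPM in Wt Pre, 534 in ccr4, 390 in pop2 and 36.9 in xrn1. In the same order DMC1 stood at 75.5, 5.39, 20.2 and 7.03 CPM and IME2 at 64.2, 30.6, 23.5 and 19.3. ZIP1, HOP1, SPS4 and SMK1 were also lower in ccr4 Pre than in Wt Pre, ZIP1 at 5.39 against 18.9 CPM. NDT80 went the other way, at 11.3, 23.4, 28.6 and 31.6, all far below its 1520 CPM in Wt Mei. In pop2 and xrn1 Pre the markers other than IME1, DMC1 and IME2 went both ways. The part of IME1 and the other markers in the members' difference was not tested.

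ccr4 Pre was above pop2 Pre for 45 members in RNA and below for 21, with a median difference of 0.17 (all genes 0.00, with 49.9% above). pop2 Pre was above xrn1 Pre for 63 (51% of all genes). In xrn1 Pre 36 of 67 were higher and 1 lower than in Wt Pre (median 1.03, with 20.3% and 14.6% among all genes). In tags 20 of 67 were higher (median 0.71, with 20.5% higher and 15.9% lower among all genes), and the lowest member stood at -0.83.

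**Figure D4:**
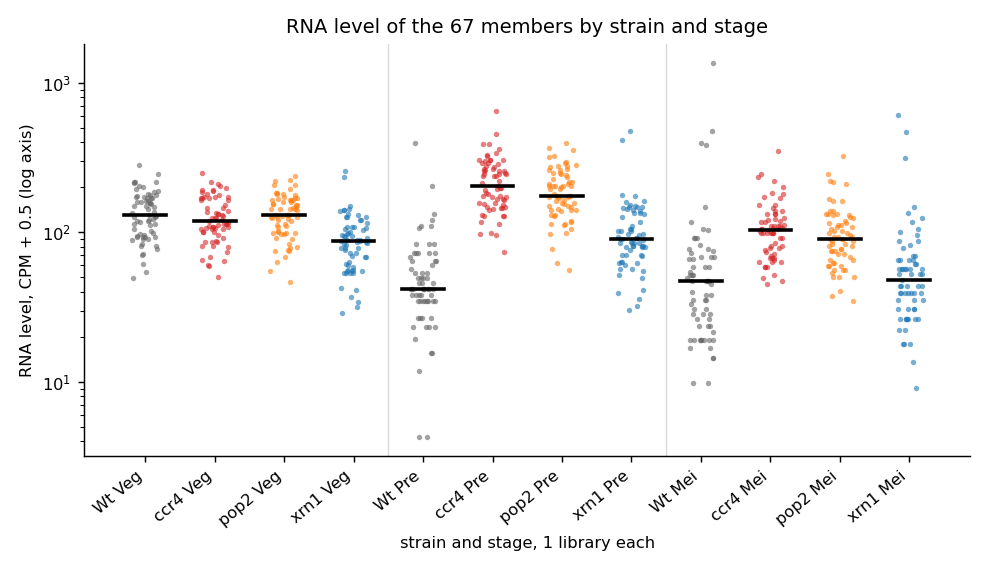
RNA level of each of the 67 members as CPM plus 0.5 on a log axis (y) in 12 libraries, 1 per strain and stage (x), with bars at the medians. The Wt median is 131 in Veg and 41.5 in Pre, while ccr4 Pre (205) and pop2 Pre (175) lie above every Veg median.

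At 5 h in SPO the same strains stood above Wt by less. In ccr4 Mei 41 of 67 members were higher and 3 lower (median 1.20, with 22.9% and 22.3% among all genes), and in pop2 Mei 34 of 65 higher and 3 lower (median 1.03, with 20% and 21.9%). In tags 51 of 66 and 47 of 66 were higher (24.2% and 22.7% of all genes). The 3 lower in both strains were MRPS17, MRP8 and MRPL37, all of which rose by 9 h in the Wt course. MRPS17 had 472 CPM in Wt Mei, 80.4 in ccr4 Mei and 111 in pop2 Mei, MRPL37 had 383, 132 and 127, and MRP8 had 1360, 349 and 322. In tags MRPL37 (-2.50) and MRPS17 (-1.77) were lower in ccr4 Mei too, and MRP8 differed by -0.41. At the other end MRPL28 (3.10), MRPL51 (2.78) and MRPS5 (2.72) were highest in ccr4 Mei. The RNA of meiotic markers differed widely between these cultures, and no other measure of their meiotic stage was at hand. IME2 was at 3660 CPM in Wt Mei, 22.3 in ccr4, 139 in pop2 and 562 in xrn1, and NDT80, needed to leave meiotic prophase, at 1520, 8.94, 6.19 and 34.6. All 9 meiotic markers measured in ccr4 Mei were lower than in Wt. Strain and meiotic stage cannot be told apart there. Cytosolic ribosomal protein genes were also higher in ccr4 Mei, 124 of 138 with a median of 1.95.

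The strain effect over the 3 stages can be tested, in a model with stage and strain terms over the 12 libraries, where the spread is how strain differences vary with stage. For ccr4 the members' median was 0.94 in RNA and 1.15 in tags, and 0 of 67 passed in either (edgeR). At an unadjusted p under 0.05 there were 31 in RNA and 48 in tags, and DESeq2 called 1 and 17 higher. For pop2 the medians were 0.81 and 1.01, with 0 called, 16 and 38 at an unadjusted p under 0.05, and 0 and 5 by DESeq2. Among all genes 0.0341% were called higher in RNA for ccr4 and 0.017% for pop2, and 0% in tags for both.

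Tails of the members were longer in ccr4 than in Wt in Veg and Pre and not in Mei. Their median mean tail was 41.1 nt in Wt Veg, 31.9 in Wt Pre and 40 in Wt Mei, and 49.1, 41.0 and 35.4 nt in ccr4. In Veg 65 of 65 members measured were longer in ccr4, 36 by more than 8 nt (median 8.24, all genes 11.26, with 83.7% of all genes past 8 nt). In Pre 43 of 64 passed 8 nt and 0 were shorter by that much (median 8.90, all genes 8.71, with 54.4%). In Mei 57 of 64 tails were below Wt, 11 by more than 8 nt and 0 above by that much (median -3.99, all genes 0.03, with 8.24% shorter and 12.2% longer). RNA and tail did not always differ together. In ccr4 Pre 41 of 64 members were past both limits (12.7% of all genes) and 20 were higher in RNA with a tail within 8 nt of Wt (6.54%). In ccr4 Veg tails were longer with RNA near Wt, and in ccr4 Mei 51 of 64 had RNA above Wt and a tail below it (22% of all genes).

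In pop2 the members' tails had medians of 42.3, 37.9 and 35.8 nt. Differences from Wt were 0.95 nt in Veg with 0 of 66 past 8 nt (16.6% of all genes), 5.84 nt in Pre with 11 of 64 longer and 1 shorter (37% and 4.3%), and -3.73 nt in Mei with 8 of 62 shorter and 0 longer (10.1% and 10.9%). In pop2 Pre 48 of 64 members were higher in RNA with a tail within 8 nt (10.9% of all genes), against 20 of 64 in ccr4 Pre. MRP1 had 39.7, 32.5 and 32.8 nt in Wt, 47.6, 41.1 and 35.7 nt in ccr4 and 40.4, 38.7 and 33.1 nt in pop2. Its tail was longest in ccr4 at each stage, so in Mei it ran against the members' medians. MRPL44 had 35.7, 30.6 and 30.2 nt in Wt, 44.5, 41.4 and 37.3 nt in ccr4 and 37.7, 37.1 and 38.1 nt in pop2. It was the member with the largest excess over Wt in ccr4 Mei (7.03 nt), where MRP49 had the largest deficit (-13.13 nt, from 47.2 to 34 nt).

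Over the 3 stages 6 of 62 members tested had longer tails in ccr4 (limma, median 4.14 nt, where 43.8% of all genes did with a median of 6.56 nt). These were MRPL44 (8.87 nt, SE 2.92, adjusted p = 0.01), MRPL33 (7.94), MRPL4 (7.88), MRPL7 (7.32), MRPS28 (7.28) and MRP20 (7.01). The count was 0 without the Veg stage, 0 without Pre and 55 without Mei, so it rested on which stages were included. With each library centred on its median tail it was 0 longer and 1 shorter. In pop2 0 of 62 passed (limma, 1 at an unadjusted p under 0.05), where 11.2% of all genes had longer tails and 0.0228% shorter ones.

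**Figure D5:**
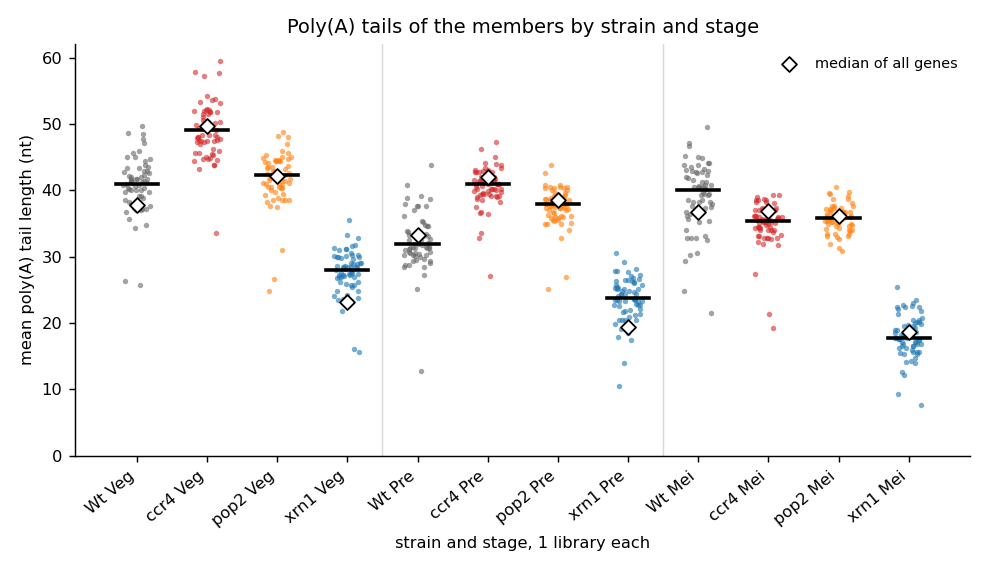
Mean poly(A) tail in nt (y axis) of each member with at least 20 tags in 12 libraries, 1 per strain and stage (x axis), with bars at the members' medians and diamonds at the medians of all genes. Members of ccr4 lie above Wt in Veg and Pre and below it in Mei, and those of xrn1 lie lowest at every stage.

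In xrn1 the members had shorter tails throughout. Their medians were 28.1, 23.8 and 17.8 nt in Veg, Pre and Mei, and 58 of 66, 36 of 64 and 64 of 64 were shorter than Wt by more than 8 nt (medians -12.85, -8.48 and -21.38 nt, all genes -14.67, -13.47 and -17.55 nt, with 82.9%, 84.3% and 95.2% of all genes). The strain term called all 62 members tested shorter (limma, median -14.16 nt, 97.8% of all genes). MRP4 (-21.78 nt, adjusted p = 2.2e-10), MRPS5 (-21.28), MRP20 (-19.95), MRPS35 (-19.30) and MRP49 (-18.97) were most negative. With libraries centred on their median tail 1 member remained shorter. RNA of the members in xrn1 Veg had a median difference of -0.67 (all genes -0.11). Of 67 members 10 were lower past 1 log2 unit, beside 10.4% of all genes. With library sizes alone the medians were 0.07 for members and 0.61 for all genes, with 3 members higher and 0 lower. The sign of the members' median thus depends on the scaling. Their place relative to all genes hardly did, at -0.56 by TMM and -0.54 by library sizes. In xrn1 Veg tags every member measured was below Wt, from -1.54 in RSM23 to -0.03 in MRP4. In the pair of libraries fragmented before adapter ligation the RNA median was -0.60, with 16 of 64 lower (15.6% of all genes). In xrn1 Mei 9 of 49 were higher and 10 lower (18.8% and 22.9%). These libraries were thin, with a median of 11 RNA counts per member in xrn1 Mei and 20 in Wt Mei. The other members did not reach the mean count required. The strain term called 0 members in RNA (edgeR, 3 at an unadjusted p under 0.05, 1 by DESeq2) and 0 in tags (3 unadjusted, 2 lower by DESeq2), beside 0.017% of all genes lower in RNA and, in tags, 0.974% higher and 0.314% lower.

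In growing cells given auxin plus copper, or copper alone, the members' tails were shorter afterwards with little difference in RNA. The first treatment was meant to deplete Xrn1 and the second to induce CCR4. Copper was part of both, and the labels list none for the controls, so its part cannot be told apart. Each is again 1 library per time, with no test. After 30 min of auxin plus copper in the degron-Xrn1 strain all 65 members measured had shorter tails, 43 by more than 8 nt (median -9.81, all genes -11.68, with 72.7% of all genes). In RNA 0 of 67 passed 1 log2 unit (median 0.22, with 10.3% of all genes higher). MRP20 had the largest difference, from 56.8 to 37.5 nt, and stood at 47.7 nt in the control. MRP1 had 40.4 nt in the control, 42.5 at 0 min and 32.6 at 30 min. Before auxin the RNA of members was already below the wild-type control in 63 of 67 (median -0.44), where 49.2% of all genes were (median 0.01). XRN1 then stood at 128 CPM against 230 in RNA and at 4.68 against 113 in tags.

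In the pCup1-Ccr4 strain CCR4 stood at 141 CPM in the control, 105 at 0 min and 490 at 60 min of copper. The members' tails had medians of 32.2, 29.3 and 24.3 nt. Of 59 measured, 53 were shorter at 60 min than at 0 min, 7 by more than 8 nt (median -4.27, all genes -4.92, with 15.6% of all genes), MRPL40 most (-13.55) and MRPS8 least (4.55). RNA passed 1 log2 unit in 0 of 67 (median 0.20, 1.2% of all genes higher). MRP1 had 159, 172 and 197 CPM and tails of 32.6, 26.3 and 24.6 nt in control, 0 min and 60 min. Its tail was shortest and its RNA highest at 60 min.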

How the data were processed

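RNA-seq and poly(A) tag libraries of SK1 yeast were analysed. Per the labels' protocols, the tag protocol selected poly(A) RNA, fragmented it and ligated a 3′ adapter, and RNA-seq used ligation and rRNA depletion before fragmentation, except that 3 libraries were fragmented before ligation. The deposited RNA-seq and tag tables hold whole-number counts per gene, and a further table from the authors gives a mean tail in nt for each gene and library, not scaled between libraries. The submitters' processing notes name STAR 2.5.3a, bedtools 2.26.0, edgeR and sacCer3. Tail calling, deduplication and use of strand: not given in the sources used here. An empty tag cell was read as 0 tags.

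The members, gene lists and tests were chosen with earlier results of these data known. Counts were tested with edgeR 4.0.16 (R 4.3.3, quasi-likelihood, TMM, filterByExpr) in 1 model of group means per experiment, or with stage and strain terms for the deletions. Tails were tested with limma 3.58.1 on values of at least 20 tags, with a robust prior following mean log2 tags. Adjusted p under 0.05 over all genes tested counted as passed. Single libraries were compared past 1 log2 unit (prior count 2, mean count at least 10) or 8 nt. Members were named by rule: the 3 largest changes in each direction per comparison (5 per strain term), MRP8, and MRPL4, MRP20, MRPL36, MRP51, MRPS28, RSM10 and MRP1 for their known roles. MRPS17 and MRPL8 at other hours, RSM22, MRPL44, MRPS8 and MRPL15 beyond the rule were followed after their values were seen. Some of the fits were tested on simulated data with known changes. These were RNA at 5 h, RNA, tags and tails at 20 min from 1 h, and RNA and tails for the ccr4 term. Replicate numbers were not treated as pairs, since correlations of same-numbered deviations ran from -0.15 to 0.26. Alternatives included DESeq2 1.42.0, other scalings and filters, and each replicate left out. The motif search and coordinates used R64, the assembly sacCer3 stands for.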

Additional observations from a re-analysis of the deposited data

Results flagged for a closer look

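The results set apart here are those in which the 20 min response to rich medium differed between cells taken from 7 h and from 1 h in SPO, by edgeR's test of the difference of log2 changes over 12 RNA-seq libraries, 2 per group. The difference was negative for 41 members and positive for 1, beside 28.4% of all genes negative and 32.5% positive. With library sizes alone the counts were 20 and 3, and without replicate 1 before transfer at 7 h 16 members were negative. The positive member was MRP8 (4.66). The largest negative values were MRPL35 (-3.37), MRPL7 (-2.71) and MRPS8 (-2.68). Of the members named throughout for their known roles, MRPS28 (-2.14), MRPL4 (-1.60), MRP1 (-0.95), RSM10 (-0.94) and MRP20 (-0.83) passed as well. The call of MRP1 (adjusted p = 0.0485, edgeR) was lost under 11 of its alternatives, which include leaving out each of 7 of the 8 libraries compared. That of RSM10 was lost under 4 and those of MRP20 and MRPL7 under 1 each.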

How the results depend on the processing

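Counts of members below are given as higher and lower under each alternative. With DESeq2 scaling factors the 5 min return from 1 h gave 15 and 13. With library sizes alone the 20 min return from 1 h gave 29 and 8, with MRP51 at -0.10 and RSM10 at -0.03, the test of the difference between returns gave 3 and 20, tags at 5 h gave 4 lower, and tags at 20 min from 1 h gave 3 higher. The xrn1 term then gave 1 higher in RNA and 14 in tags. In single libraries it gave 1 higher in ccr4 Veg (median 0.17), 3 in pop2 Veg, 3 and 0 in xrn1 Veg (median 0.07), 18 and 4 in xrn1 Mei (median 0.45), 1 in degron-Xrn1 and 6 in pCup1-Ccr4. All genes moved with them, in ccr4 Veg from -0.01 to 0.24, in xrn1 Veg from -0.11 to 0.61 and in xrn1 Mei from -0.09 to 0.49. DESeq2 gave 8 lower at 5 min and 1 lower at 20 min from 1 h, 3 higher at 5 min and 0 and 3 at 20 min from 7 h. In tags DESeq2 gave 5 lower at 5 h, 1 lower at 20 min from 1 h and 0 from 7 h. It gave 1 higher for ccr4 and 1 for xrn1 in RNA, and 17 higher for ccr4, 5 for pop2 and 2 lower for xrn1 in tags.

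For tails, a minimum of 10 tags gave 11 longer at 20 min from 1 h, and centring each library gave 1. Centred, the strain terms gave 0 and 1 for ccr4, 1 lower for pop2 and 1 lower for xrn1, with MRPL36 at 1.06, MRP51 at 2.86, MRPS28 at 1.26 and MRP1 at 1.20 nt. Centred single libraries gave 0 and 1 in ccr4 Veg (median -3.75), a median of -3.57 in pop2 Veg, 4 and 1 in xrn1 Veg (1.75), 0 and 2 in ccr4 Pre, 2 longer in pop2 Pre, 14 and 0 in xrn1 Pre (5.18), 1 longer in pop2 Mei, 9 shorter in xrn1 Mei, 5 and 0 in degron-Xrn1 (2.40) and 1 and 2 in pCup1-Ccr4 (0.37). A plain limma prior gave 3 longer for ccr4. Without Veg the ccr4 term gave 0, without Pre 0 and without Mei 55, and the pop2 term gave 1 without Mei. Past 1.5-fold, RNA gave 1 and 3 in ccr4 Veg, 2 and 5 in pop2 Veg, 2 and 39 in xrn1 Veg, 2 lower in xrn1 Pre, 5 lower in pop2 Mei, 14 higher in xrn1 Mei, 4 higher in degron-Xrn1 and 3 in pCup1-Ccr4. Past 5 nt, tails gave 62 longer in ccr4 Veg, 2 in pop2 Veg and 39 in pop2 Pre, 2 and 28 in ccr4 Mei, 1 and 24 in pop2 Mei, and 24 shorter in pCup1-Ccr4. The cause of these shifts was not tested.

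Leaving out each replicate gave 66 to 67 changed over the course, 60 to 62 lower at 1 h, 1 to 3 and 48 to 56 at 5 h, and 4 to 6 and 28 to 40 at 9 h. From 1 h it gave 8 to 9 and 12 to 22 at 5 min and 39 to 48 and 1 to 2 at 20 min. From 7 h it gave 2 to 6 and 5 to 10 at 5 min and 0 to 1 and 0 to 4 at 20 min. The difference between returns gave 1 and 16 to 42. Tags gave 1 and 2 to 12 at 5 h, 5 to 15 and 1 to 2 at 20 min from 1 h, and 0 to 1 and 0 from 7 h, and tails 0 to 3 at 20 min from 1 h. With the replicate number as a block, 64 members were lower at 1 h, 2 and 57 passed at 5 h, 49 were higher at 20 min from 1 h and 42 had a negative difference between returns. Crossing the numbers for tails at 5 min from 7 h, chosen after seeing the data, gave 0 calls as did the pairing as numbered. Single libraries, a median of 11 RNA counts per member in Wt Pre and in xrn1 Mei, and the 20-tag minimum limit what can be resolved.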

Other observations

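MRP8, which is no mitoribosomal protein by current description, differed from the other members in how its readouts compare. In Wt Pre it had 393 CPM in RNA and 11 CPM in tags, and in Wt Mei 1360 and 18.2. MRP1 in the same libraries had 49.1 and 39.4, and 28.0 and 31.4. The tail of MRP8 was 34.4 nt in Wt Veg, 12.8 in Wt Pre and 24.9 in Wt Mei. Whether counts assigned to MRP8 come from its own polyadenylated mRNA was not tested.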
